A study of Mus musculus with 6 samples.

Results

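In mouse 2-cell embryos, 89 genes had 5 or more counts in each of 3 control libraries and 0 counts in each of 3 libraries of delipidated embryos. They were chosen by these counts from the 46811 genes with a single identifier in the deposited data, of which 29279 had at least 1 count. Vim, Axl, Asns and Hdac11 were left out of the selection. Vim, Asns and Hdac11 met the same rule, so that 92 genes met it in all, 0.694% of the 13256 genes with 5 or more counts in each control library. The 89 genes were 69 protein-coding genes and 20 noncoding genes, pseudogenes or unclassified loci. Zfp467, Cacna1f, Kcnn3, 4930523C07Rik and Pir had the highest levels in their lowest control library. This order is by counts summed over the parts of a gene's exons, where a read can be counted more than once. Because these counts chose the genes, their absence from the delipidated libraries is a description and has no test.

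The study compared embryos whose lipid droplets had been taken out with embryos left intact, to follow gene expression after the loss of this lipid store. All embryos were wt and of the strain F1 (C57Bl/10 X CBA/H), came from hormonally stimulated females and had their cumulus cells removed with hyaluronidase. Total RNA was sequenced after depletion of ribosomal RNA, with 3 embryos pooled in each of 6 libraries. Zygotes were collected together and then divided between the groups, so the spread between libraries measures pools of 1 collection and may be technical. Control embryos had in vitro culture from the zygote as their only treatment. Delipidated embryos were zygotes exposed to cytochalasin B, centrifuged in 2 steps and opened at the zona pellucida with a laser, after which the droplets were aspirated. Both groups were kept in KSOM without fatty acids from 0.5 to 2.0 dpc and were labelled day 2. The labels do not say that control embryos were centrifuged or given cytochalasin B, so effects of these steps and of droplet loss cannot be told apart.

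At the 2-cell stage the embryo degrades transcripts inherited from the oocyte while its own genome is switched on. Genome activation is broad in the mouse, and many genes that later become restricted to a tissue are transcribed at a low level for a short time. Lipid droplets of the oocyte and zygote store triglycerides and sterol esters and take up proteins that act on lipids.

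The control libraries held 11107620, 14709872 and 11752543 counts on parts with a single gene identifier, and the delipidated libraries held 18250230, 14868708 and 13419792. A count is a uniquely mapped read on an exonic part, a non-overlapping piece of a gene's exons, and a read lying over more than 1 part adds a count to each of them. The delipidated libraries were thus deeper on average, yet they held counts for fewer genes. Counts were found for 21520, 21083 and 19315 genes in control libraries 1 to 3 and for 15995, 18186 and 18917 genes in delipidated libraries 1 to 3. Delipidated library 1 had the most counts and the fewest genes with a count. On a single part, where a read is counted once, a count of 0 allows up to 3 counts in a library. This is 0.164, 0.202 and 0.224 counts-per-million (CPM) in delipidated libraries 1 to 3. For a gene's sum the limit can be higher, since the same reads may be counted on several parts. Intervals and floors given here cover counting error only.

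Markers of the 2-cell embryo were present in all libraries. Of 22 genes of 2-cell genome activation, control libraries 1 to 3 had counts for 21, 22 and 22, and so did delipidated libraries 1 to 3. Their summed levels were 1090.2, 691 and 1067 CPM in control and 979, 1053 and 1127 CPM in delipidated libraries, with Dppa2 the most abundant over all 6 libraries, as this term is used for each list. All 19 maternal oocyte transcripts found in the data had counts in all 6 libraries, with Btg4 the most abundant and summed levels of 5529.7, 3480.5 and 5120.4 CPM in control and 4085, 4336 and 6007 CPM in delipidated libraries. The median log2 fold change, delipidated over control, was 0.04 for the activation genes and 0.09 for the maternal transcripts, against -0.00054 over all genes tested. None of the 21 activation genes and 19 maternal genes tested was called by edgeR. The smallest unadjusted p-values belonged to Usp17lb (log2 fold change 0.64, SE 0.27) and Tdpoz4 (0.74, SE 0.58) in the first list and to Npm2 (0.40, SE 0.23) and Nlrp2 (0.63, SE 0.45) in the second.

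The 89 genes together held 1283, 1788 and 1946 counts in control libraries 1 to 3, which was 118.69, 119.11 and 162.74 CPM. These sums were 0.0116%, 0.0122% and 0.0166% of the counts of each library. In its lowest control library a gene had 5 to 24 counts, with a median of 7, and the highest count of any gene in any control library was 94. Mean control levels ran from 0.486 to 3.42 CPM with a median of 1.31 CPM. Control library 3 held the highest level for 37 genes, control library 2 for 29 and control library 1 for 23. The highest control level was a median of 3.17 times the lowest, at least 5 times in 28 genes and under 2 times in 18. Over the 3065 other genes with a lowest control count in the same range, this median was 3.76.

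The opposite pattern was less frequent. Only 12 genes had 5 or more counts in each delipidated library and 0 in each control library, 0.0968% of the 12393 genes with 5 or more counts in each delipidated library. Ren1, which encodes renin, had 47, 39 and 30 counts in the delipidated libraries and was the only one of the 12 with 20 or more in each. The lincRNA 4930517L18Rik had 26, 11 and 18 counts, the ribosomal pseudogene Rps12-ps19 had 22, 29 and 9, Ccdc113 had 12, 14 and 9, and the antisense gene Gm20513 had 78, 17 and 8. Both counts moved with single libraries, since the rule then asks for 5 libraries in place of 6. Without control library 1, 2 or 3 the control direction held 328, 272 or 269 genes and the opposite direction 58, 42 or 31. Without delipidated library 1, 2 or 3 it held 137, 199 or 239 genes, and the opposite direction 62, 55 or 52.

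Absence from the delipidated libraries was confined to thinly counted genes, with Vim as the exception. Among genes with a lowest control count of 5 to 9, 66 of 1261 (5.23%) were at 0 in all delipidated libraries, and from 10 to 19 counts 24 of 1440 (1.67%) were. From 20 to 49 counts it was 1 of 1950 (0.0513%), Zfp467, and from 50 to 99 counts 0 of 1554. The lowest control count of Zfp467, 24, was made of 12 on each of 2 adjoining parts, which 12 reads over both parts would also give, so its place in this range may rest on reads counted more than once. Among 7051 genes with 100 or more counts in each control library, Vim alone was at 0 in every delipidated library. In the opposite direction the shares were 10 of 847 (1.18%) at 5 to 9 counts, 1 of 1047 (0.0955%) at 10 to 19 and 1 of 1710 (0.0585%) at 20 to 49. Zeros at these levels were unevenly spread over the delipidated libraries. Of the 1261 genes with a lowest control count of 5 to 9, 459 (36.4%) were at 0 in delipidated library 1, 272 (21.6%) in library 2 and 210 (16.7%) in library 3. Of the 847 genes with a lowest delipidated count of 5 to 9, 61 (7.20%) were at 0 in control library 1, 98 (11.6%) in library 2 and 142 (16.8%) in library 3. The part of these differences between libraries in the 89 genes was not tested.

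**Figure D1:**
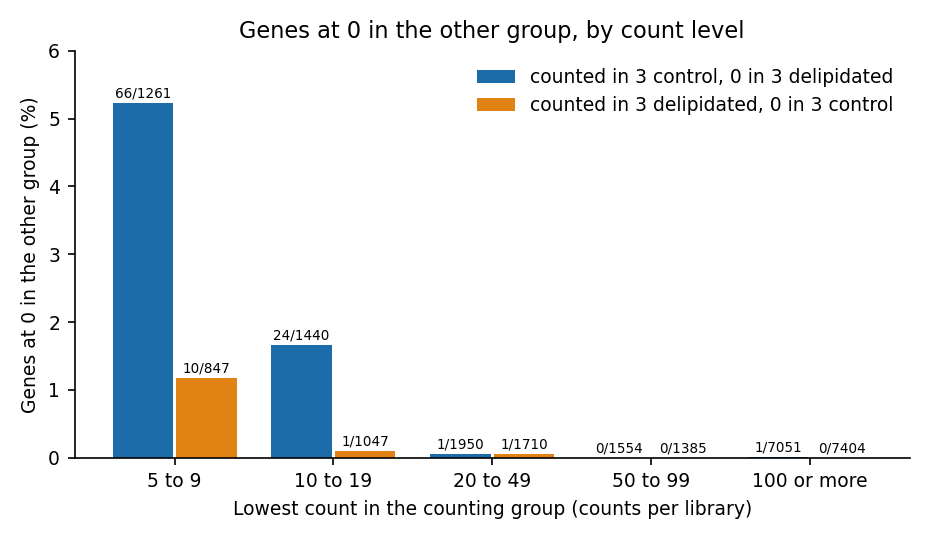
Percent of genes at 0 in all 3 libraries of the other group (vertical axis) by the lowest count in the 3 libraries that count the gene (horizontal axis), for genes counted in control (blue) or in delipidated (orange) libraries, Vim, Asns and Hdac11 included; the numbers above the bars are genes at 0 over all genes of the bin. The share was 5.23% at 5 to 9 control counts and 1.67% at 10 to 19, against 1.18% and 0.0955% in the opposite direction.

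Across all genes, edgeR's quasi-likelihood test called 0 of 14989 genes lower (0%) and 0 higher (0%) in delipidated embryos at an adjusted p under 0.05 and a log2 fold change beyond 1. An unadjusted p under 0.05 was found for 265 lower and 172 higher genes. Without a filter on low counts, edgeR called 23 genes lower and 4 higher and DESeq2 called 43 lower and 10 higher. Values printed below with an SE are log2 fold changes, delipidated over control, of other genes in the edgeR fit with the filter, where each had an adjusted p of 1.00. Of the 89 genes, 32 passed the filter, which they could do only through their control counts. In this bulk RNA, loss of a transcript from every cell and loss of cells that hold it cannot be told apart.

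Transcription factors and other nuclear proteins formed a group of 5 genes with 119, 94 and 251 counts in control libraries 1 to 3. A sum over parts may hold a read more than once. By such sums Zfp467, a zinc finger protein studied in fat and bone progenitors, ranked highest of the 89 genes in its lowest control library. It is ENSMUSG00000068551 on the reverse strand of GRCm38 at chr6:48427697-48445825, and its counts were 32, 24 and 58 (3.14 ± 1.63 CPM, mean ± SD, n = 3 control libraries). Pir (ENSMUSG00000031379, chrX:164269371-164373011, forward strand), an iron-binding nuclear protein known as pirin, had 25, 22 and 15 counts (1.68 ± 0.560 CPM). Arnt2 (chr7:84246278-84410176, reverse strand), the partner of several bHLH-PAS transcription factors in the nervous system, had 12, 23 and 64 counts (2.66 ± 2.34 CPM). Zmat1 (chrX:134971372-135009209, reverse strand), a matrin-type zinc finger protein, had 9, 14 and 67 counts (2.46 ± 2.73 CPM). Zfp266, a KRAB zinc finger protein, was the remaining gene of this group. Control library 3 was the highest for 4 of the 5, Pir being the exception. The 4 other Zmat genes all passed the filter and none was called, among them Zmat3 (log2 fold change 1.17, SE 0.79) and Zmat5 (0.33, SE 0.38).

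Ion channels and membrane carriers made up 9 genes, with 115, 211 and 130 counts in the control libraries. Cacna1f (ENSMUSG00000031142, chrX:7607083-7635196, forward strand), the pore of the L-type calcium channel of retinal photoreceptors, had 35, 28 and 19 counts (2.23 ± 0.883 CPM). Kcnn3 (ENSMUSG00000000794, chr3:89520164-89675132, forward strand), a small-conductance potassium channel opened by calcium, had 16, 20 and 25 counts (1.63 ± 0.402 CPM). Each had 16 or more counts in every control pool. Slc12a4 (chr8:105943590-105966097, reverse strand), a potassium chloride cotransporter that regulates cell volume, had 9, 71 and 20 counts (2.41 ± 2.05 CPM), most of them in control library 2. The channels also included Cacna1s, the L-type pore of skeletal muscle, Kcnt2, a potassium channel activated by sodium, Trpc7, a cation channel, and Cnih2, an auxiliary subunit of AMPA receptors. Slc39a3, a zinc importer, was among the carriers. The pores Cacna1f and Cacna1s belong to a family with 8 other genes, all of which had counts and passed the filter with none called. Cacna1a had a log2 fold change of -1.02 (SE 1.10), which was -2.44 without delipidated library 1 and -0.48 without delipidated library 2. Cacna1e had one of -1.29 (SE 1.62), which was 1.03 without control library 3 and 0.54 with the replicate number as a block. Among 3 other Kcnn genes Kcnn2 alone passed the filter (0.79, SE 0.58). Of 5 other Trpc genes, Trpc4 had 1.27 (SE 1.76), and -7.76 without delipidated library 3, the only delipidated library that counted it, and Trpc1 had -0.50 (SE 0.74). The cornichon genes Cnih1 (0.23, SE 0.39) and Cnih4 (-0.03, SE 0.44) were counted in all libraries, and the value for Cnih4 was 0.31, 0.08 and 0.03 without control library 2, delipidated library 2 and delipidated library 3.

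Enzymes of metabolism and protein turnover were 10 genes with 171, 242 and 204 control counts. Ddc (chr11:11814101-11898144, reverse strand), the decarboxylase that makes dopamine and serotonin, had 30, 18 and 54 counts (2.83 ± 1.66 CPM). Ctsf (chr19:4855130-4860918, forward strand), a lysosomal cathepsin, had 33, 18 and 12 counts (1.75 ± 1.13 CPM). Each of these genes was above 10 counts in every control pool. Lipid metabolism was represented by Cyp4f16, a cytochrome P450 of the fatty acid hydroxylase family, by Aldh3b2, an aldehyde dehydrogenase for long-chain aldehydes that resides on lipid droplets, by the carboxylesterase Ces3b and by Cwh43, which remodels the lipid of GPI anchors. Cyp4f16 had 14, 87 and 8 counts, Aldh3b2 had 6, 7 and 30, Ces3b had 20, 5 and 40, and Cwh43 had 6, 19 and 12, so that each was carried mainly by 1 or 2 control pools. These 4 genes were picked out after their values were seen. The remaining enzymes were the placental cathepsin Cts6, the cytochrome b5 reductase Cyb5r1, the phosphoribosyl pyrophosphate synthetase Prps2 and the sulfotransferase Gal3st2b. Of 18 other Ces genes, 13 had counts, 9 of these had none in the delipidated libraries, 1 had none in the control libraries and 1 passed the filter. Over all genes with counts, 22.4% had none in the delipidated and 7.40% none in the control libraries. The Ces gene that passed, Ces4a, had 9, 28 and 45 counts in control and 0, 4 and 0 in delipidated libraries (log2 fold change -4.46, SE 1.87, adjusted p = 1.00 in edgeR). Of 3 other genes named Cts with a number, which leaves out cathepsins named with a letter, Cts3 alone passed the filter (-0.45, SE 1.63), and its value was 0.45 without control library 3 and 0.57 with the replicate number as a block.

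Genes of the cytoskeleton, muscle and focal adhesions numbered 7, with 110, 188 and 162 control counts. Tgfb1i1 (chr7:128246812-128255699, forward strand), the paxillin-family adaptor Hic-5 of focal adhesions, had 38, 73 and 11 counts (3.10 ± 2.00 CPM). Krt42 (chr11:100262882-100269871, reverse strand), a type I keratin, had 21, 15 and 10 counts (1.26 ± 0.597 CPM). Control library 3 held the fewest counts of both, whereas it was the highest for 4 of the 7 genes. The others were Synpo2, which bundles actin, Fhl2, a LIM-domain protein of heart muscle, Speg, a kinase of striated muscle, Mylpf, a myosin light chain of fast muscle, and Efs, a Cas-family adaptor. Of 4 other Fhl genes, Fhl3 alone passed the filter, at -0.26 (SE 0.76), or 0.08 without control library 2 and 0.24 without delipidated library 1.

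Extracellular matrix genes were 4, with 48, 117 and 90 control counts. Col1a1 (chr11:94936224-94953042, forward strand), a chain of type I collagen, had 11, 26 and 42 counts (2.09 ± 1.28 CPM). Fkbp10 (chr11:100415697-100424824, forward strand), a chaperone of the endoplasmic reticulum that helps collagen fold, had 8, 46 and 32 counts (2.16 ± 1.25 CPM). Both genes of collagen synthesis were lowest in control library 1. Lamb3, a chain of an epithelial laminin, had 21, 26 and 7 counts, and Itih1, a heavy chain that is transferred to hyaluronan, had 8, 19 and 9. Of 13 other Fkbp genes, all with counts, 10 passed the filter and none was called, among them Fkbp3 (0.61, SE 0.35) and Fkbp14 (-1.01, SE 0.59). All 4 other Itih genes had counts, and the 2 that passed the filter turned with single libraries. Itih5 had 0.64 (SE 1.18), and -0.45 without delipidated library 1, and Itih2 had -0.84 (SE 1.96), and 0.46 without control library 1 and 0.04 with the replicate number as a block.

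Secreted and surface signals were 8 genes with 110, 157 and 235 control counts. Nell2 (chr15:95075230-95528559, reverse strand), a secreted glycoprotein of neurons, had 17, 12 and 82 counts (3.08 ± 3.30 CPM), most of them in control library 3. Gdf3 (chr6:122605403-122610087, reverse strand), a ligand of the TGF-beta family made in pluripotent cells, had 8, 24 and 16 counts (1.23 ± 0.440 CPM). Nrn1, the surface protein neuritin, had the same lowest level as Gdf3, with 8, 14 and 30 counts. The rest were the growth factor Pgf, the chemokine Ccl27a, Hamp, which encodes the iron hormone hepcidin, Gc, the vitamin D binding protein, and Kcp, a modulator of BMP signals. Of 8 other Gdf genes 3 passed the filter and none was called, among them Gdf11 (0.39, SE 0.81) and the oocyte factor Gdf9 (0.09, SE 0.26). Gdf9 had -0.01 without control library 2 or 3 and -0.04 without delipidated library 2. Of 22 other Ccl genes 12 had counts, of which 5 had none in the delipidated and 2 none in the control libraries. These shares were 22.4% and 7.40% over all genes with counts. The 2 Ccl genes tested were Ccl28 (2.30, SE 1.76) and Ccl25 (0.51, SE 0.81). Ccl28 had 0.045 without delipidated library 3 and 4.47 without control library 1.

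Receptors and intracellular signalling contributed 9 genes with 127, 118 and 219 control counts. Plcb2 (chr2:118707517-118728438, reverse strand), a phospholipase C downstream of G proteins, had 15, 15 and 94 counts (3.42 ± 3.85 CPM), the highest mean level and the highest single count of all 89 genes. Tbc1d7 (chr13:43151740-43171501, reverse strand), a subunit of the TSC complex that restrains mTORC1, had 9, 15 and 23 counts (1.25 ± 0.588 CPM). The group also held the G protein regulators Rgs7 and Rgsl1, the exchange factor Arhgef37, the olfactory receptors Olfr1414 and Olfr1002, the calcium-binding protein S100a6 and Gbp5, a GTPase induced by interferon. All 3 other Plcb genes passed the filter with none called, among them Plcb3 (-0.85, SE 0.59) and Plcb1 (0.52, SE 0.42). Of 20 other Rgs genes 11 were tested with 0 called, Rgs9 having -2.10 (SE 1.16) and Rgs22 having 0.97 (SE 0.76). Of 23 other Arhgef genes 19 were tested with 0 called, among them Arhgef28 (-1.59, SE 0.55) and Arhgef16 (-1.35, SE 0.62). Of 4 other Gbp genes 3 had counts and 0 passed the filter. Of these 3, 2 had none in the delipidated libraries, as had 22.4% of all genes with counts.

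Cilium, flagellum and germ line genes were 6, with 79, 164 and 82 control counts. Dnali1 (chr4:125055338-125065703, reverse strand), a light intermediate chain of axonemal dynein, had 13, 26 and 12 counts (1.31 ± 0.377 CPM). Tmem81 (chr1:132506230-132508639, forward strand), a membrane protein of sperm, had 19, 39 and 11 counts (1.76 ± 0.839 CPM). Control library 2 was the highest for 5 of the 6, the exception being Catsperg2, a subunit of the CatSper calcium channel of sperm, with 11, 5 and 40 counts. Kif6, a kinesin, Ttc23l and Piwil4, a piRNA-binding Argonaute protein of the male germ line, completed the group. Of 33 other Kif genes 30 were tested with 0 called, among them Kif21b (0.77, SE 0.39) and Kif4 (-0.33, SE 0.21). Of 39 other Ttc genes 34 were tested with 0 called, among them Ttc26 (-1.19, SE 0.49) and Ttc7 (1.20, SE 0.55).

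The other 11 protein-coding genes had 212, 149 and 289 control counts. 4930523C07Rik (chr1:160044382-160080208, forward strand), annotated as protein-coding but without a known role, had 23, 19 and 27 counts (1.88 ± 0.539 CPM). Cgrrf1 (chr14:46832125-46854193, forward strand), a RING finger protein, had 20, 14 and 41 counts (2.07 ± 1.26 CPM). Klhl5, a Kelch protein, Armcx3, an armadillo protein of the mitochondrial surface, Nbdy, a small protein of P-bodies, and Bex4, of a family expressed in brain, were also at 0 in the delipidated libraries. Fndc3c1, Ccdc192, AI837181, Gm5592 and Gm10392 made up the rest. Bex2, which was not among the 89 genes, had 98, 111 and 42 counts in control and 0, 3 and 6 in delipidated libraries, a log2 fold change of -4.90 (SE 1.28). Its adjusted p was 1.00 in edgeR with the filter and ran from 0.00327 in DESeq2 without a filter to 1.00 over the alternatives. Bex1 was counted in all 6 libraries (0.23, SE 0.37), with -0.05 without control library 1 and -0.04 without delipidated library 2. Of 33 other Klhl genes 22 were tested with 0 called, among them Klhl20 (-0.90, SE 0.55) and Klhl28 (1.18, SE 0.79). Of 4 other Armcx genes 3 had counts and 0 passed the filter. Of these 3, 2 had none in the delipidated libraries, as had 22.4% of all genes with counts.

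Across the 21 gene families of these members there were 258 other genes. Of the 231 with counts, 33 (14.3%) had counts in control but in no delipidated library and 4 (1.73%) in delipidated but in no control library. Over all 29279 genes with counts, 6556 (22.4%) were counted only in control and 2168 (7.40%) only in delipidated libraries. The sets were not matched by level, on which zeros depended, so these shares are not like for like. The same holds for the single families and the marker lists set beside them. By edgeR 159 family genes were tested with 0 called. The fold change was negative for 77 of the 159 and positive for 82.

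The 20 other genes were 6 lincRNAs, 4 loci annotated as to be experimentally tested (TEC), 2 antisense genes, 2 processed and 2 unprocessed pseudogenes, 2 processed transcripts, 1 snoRNA and 1 identifier missing from the annotation. Together they had 192, 348 and 284 counts in the control libraries. Gm16861 (chr16:4935049-4939633, reverse strand), an antisense gene, had 13, 29 and 55 counts (2.58 ± 1.79 CPM). The pseudogene Gm15363 (chrX:74958531-74959647, forward strand) had 10, 24 and 12 counts (1.18 ± 0.368 CPM), and the lincRNA Gm12381 had 8, 32 and 16. The lowest control count of the 20 ran from 5 to 13 and their mean levels from 0.486 to 2.58 CPM.

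**Figure D2:**
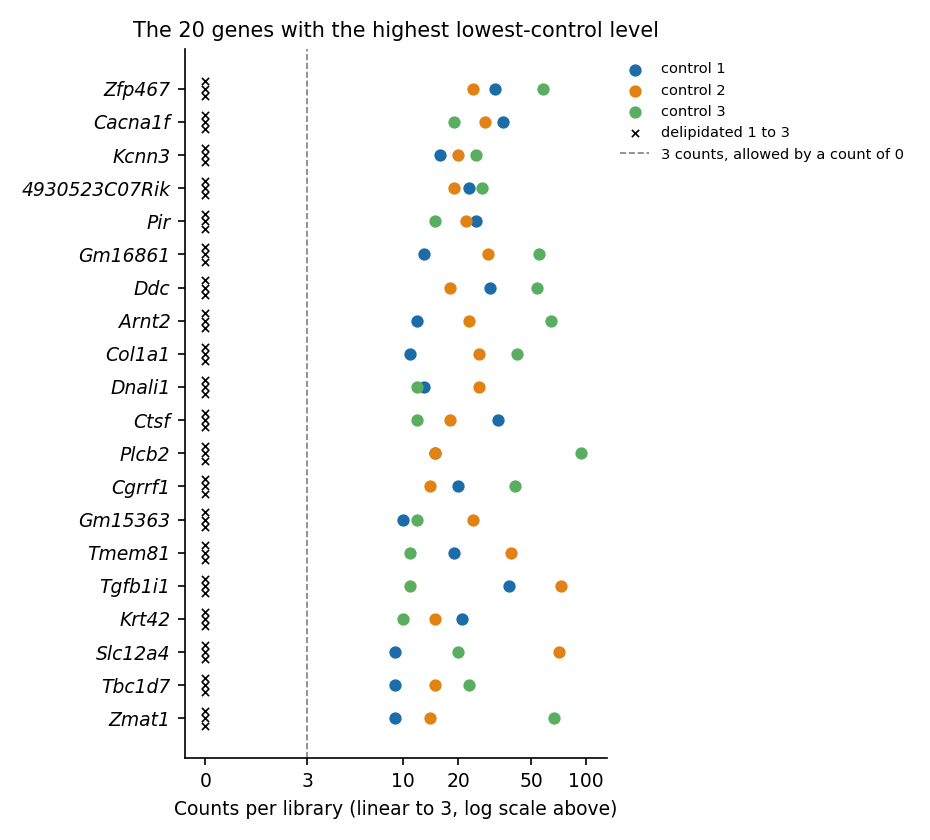
Summed counts per library (horizontal axis, linear to 3 and logarithmic above) for the 20 genes with the highest level in their lowest control library, with control libraries as coloured points and the 3 delipidated libraries as crosses. All crosses sit at 0, and control points run from 9 to 94 counts. The dashed line marks the 3 counts that a count of 0 on a single part allows, which is not the limit for a sum.

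The rule drew its line through a continuum of low counts. At its edge 18 of the 89 genes had a lowest control count of 5, the highest of them by mean level being Prps2 with 41, 5 and 26 counts, Ces3b with 20, 5 and 40, and Fhl2 with 5, 10 and 44. Another 27 genes were at 0 in all delipidated libraries with a lowest control count of 4. Gramd1a, a sterol carrier between membranes, had 4, 47 and 114 counts, the transcription factor gene Tbx2 had 4, 41 and 40, and Cyp4f17 had 7, 58 and 4. A further 18 genes had 5 or more counts in each control library and a single count over the delipidated libraries. The hormone gene Gip had 40, 7 and 78 control counts with 1 in delipidated library 2, Card10 had 11, 60 and 27 with 1 in delipidated library 3, and Zfp275 had 6, 13 and 48 with 1 in delipidated library 2. The genes left out of the selection had 152, 145 and 300 counts (Vim), 18, 13 and 42 (Asns), 15, 64 and 11 (Hdac11) and 59, 2 and 206 (Axl) in control libraries 1 to 3 and none in any delipidated library.

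Within a gene, the counts fell on few exonic parts and on different parts in different control pools. Of the 51 genes with 10 or more parts, 43 had control counts on fewer than 50% of them, and 44 had no part counted in all 3 control libraries. Over all 89 genes, 58 had no part counted in all 3. The most counted part held a median of 37.8% of a gene's control counts and over 50% in 26 genes. In 51 genes with several parts, at least 1 control library had its counts on a single part. Zfp467 has 24 parts, of which 6, 2 and 5 were counted in control libraries 1 to 3. Its part at 48441947-48442060 held 7 counts in library 1 and 22 in library 3, whereas the counts of library 2 lay on the neighbouring parts 48445568-48445693 and 48445694-48445825, with 12 each. Cacna1f has 73 parts, of which 8, 5 and 3 were counted, and no part was shared by any 2 of the libraries. All 15 counts of Pir in control library 3 lay on 1 part, at 164307204-164307321, which had none in the other control libraries. For 4930523C07Rik the parts at 160045026-160047828, 160075462-160080208 and 160071541-160072782 held 23 counts of library 1, 19 of library 2 and 24 of library 3. Kcnn3 has 10 parts, and the one at 89564859-89564954 held 8 counts in library 2 and 10 in library 3.

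**Figure D3:**
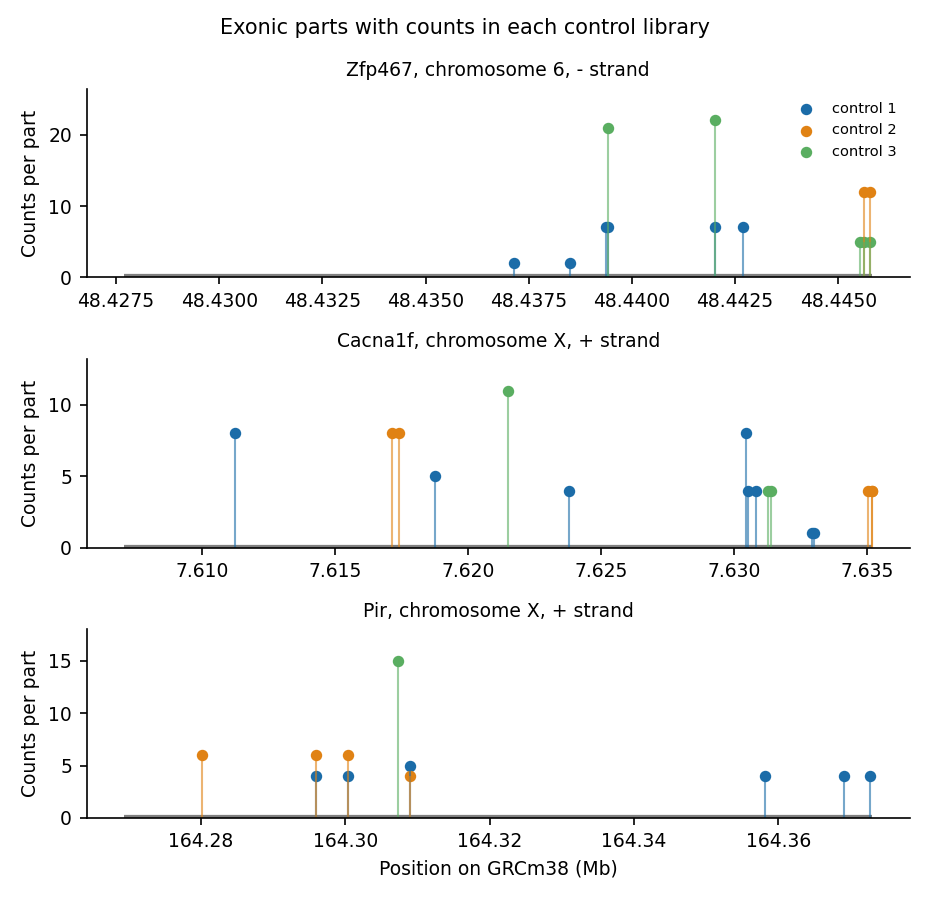
Counts per exonic part (vertical axis) at the midpoint of each part in megabases of GRCm38 (horizontal axis) for Zfp467, Cacna1f and Pir, with a point for each part counted in control library 1, 2 or 3 and the grey bar marking the gene. Cacna1f had counts on 8, 5 and 3 parts, none of them shared between libraries.

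Most counts of the protein-coding genes lay on parts that overlap coding sequence. Such a part is called coding here even where it also holds untranslated bases, so the coding shares are upper limits. The median share on parts that overlap coding sequence was 84.4% over the 69 genes, 59 had over 50% of their counts there and 23 had all of them. Zfp467 had 64.0% on coding and 36.0% on untranslated parts. Counts on untranslated parts alone made up 93.6% for Cyp4f16, 82.8% for Olfr1414 and 74.1% for Armcx3, and 4930523C07Rik had no count on a coding part.

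A fold against libraries at 0 can be given only as a bound, and only on a single part, where a read is counted once. For 18 of the 89 genes the most counted part had more than 3 counts in each control library. Set against 3 counts in each delipidated library, the mean control level of this part, scaled to the library totals, was at least 2.49 to 10.8 times higher. This limits the delipidated side only and makes no allowance for the error of the control mean. At these control means the level in the delipidated libraries was at least 10.8-fold lower for Gm16861, 7.02-fold for Gm45001 and 6.73-fold for Tmem81. It was at least 5.68-fold lower for Gm43760 and 5.47-fold for Bex4, and these 5 bounds were the largest. Each rested in part on 1 control pool, control library 3 for Gm16861, Gm43760 and Bex4 and control library 2 for Gm45001 and Tmem81, without which they were 5.75, 4.19, 3.44, 4.82 and 3.35. Over the 18 genes, the bounds without the highest control library ran from 1.78 to 5.75, and 5 of them moved by more than 1.5 times. These were Gm16861, Tmem81, Bex4, Slc39a3 (4.48, and 2.23 without control library 2) and Gm12751 (5.20, and 2.77 without control library 1).

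Some of the counts could belong to a neighbour on the opposite strand. Although the library kit keeps the strand, parts at the same coordinates on opposite strands had equal counts in 49 of 49 comparisons over 15 such pairs, so the counting did not separate the strands. In 16 of the 89 genes part of the control counts lay on parts that overlap an exon of the opposite strand, and in 6 it was over 50%. All counts of Gm16861 lay over Mgrn1, which had a mean of 13.6 CPM in control and 19.5 CPM in delipidated embryos, and all counts of Gm45242 lay over Tmem192, with 7.44 and 10.7 CPM. Gm10392 had 94.4% of its counts over Abhd15 (19.7 and 16.5 CPM) and Dnali1 had 72.5% over Gnl2 (99.8 and 106 CPM). The last 2 were Gm26894 with 77.8% and Gm44899 with 73.3%. Their opposite-strand neighbours were Shh, whose level is not given here, and Gm18782 (0.373 and 0.0725 CPM). On its own strand Gm26894 overlapped the body of 9530036O11Rik (0.973 and 0.710 CPM). The opposite-strand neighbours with a level given here had counts in delipidated embryos, whereas the overlapping genes themselves were at 0. These levels are of whole genes, and the part of the neighbours in the counts was not tested. A position inside another gene was frequent, with 20 genes in the body of a gene on the same strand and 37 over one on the opposite strand. The snoRNA Gm25636, for example, lies in Ipo7, which had 479 and 556 CPM. Several of the 89 genes, such as Ccl27a, Ces3b, Cyp4f16 and the olfactory receptors, belong to families with similar copies, and whether the counting of unique reads alone lowered their counts was not tested.

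The 89 genes lay on 20 chromosomes, with 12 each on chromosomes 1 and 7 and 11 on the X chromosome. The X-linked genes included Cacna1f, Pir, Zmat1, Fndc3c1, Nbdy, Armcx3, Bex4, Prps2, Gm15363 and Gm6645. The 11 genes made up 12.4% of the 89, which were chosen by their counts, so that the share has no test. Among other genes with 5 or more counts in each control library 424 of 13167 (3.22%) were X-linked, and among those with a lowest control count in the members' range 106 of 3065 (3.46%). In the opposite direction 1 of 12 was X-linked. The X chromosome held 2.95%, 2.86% and 2.73% of all counts in control and 2.35%, 2.81% and 2.99% in the delipidated libraries. X-linked genes with counts numbered 882, 778 and 702 in control and 534, 689 and 688 in delipidated libraries. The Y chromosome held 0.00793%, 0.00940% and 0.0169% of counts in control and 0.0137%, 0.0102% and 0.00839% in delipidated libraries. The Y-linked gene Ddx3y had 6, 7 and 112 counts in control and 160, 100 and 68 in delipidated libraries, and Eif2s3y had 61, 70 and 252 and then 255, 95 and 58. The labels do not give the sex of the embryos, and its part in the X-linked share was not tested. Under alternatives chosen after seeing the data the share ranged from 0% of 1 gene at a minimum of 20 counts to 18.8% of 32 genes with counts on at least 2 parts. It was 5.26% of 38 genes when the most counted part replaced the sum. With a library left out it was 4.57%, 6.62% and 7.81% without control library 1, 2 and 3, and 8.76%, 8.04% and 7.95% without delipidated library 1, 2 and 3.

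In length and structure the 89 genes lay between all counted genes and those that were as thinly counted. Protein-coding genes made up 77.5% of the 89, against 83.7% of the other genes with 5 or more counts in each control library and 64.1% of those in the same range of counts. The median summed length of their exonic parts was 2935 bases, against 3732 and 2596. The median number of parts was 12, against 15 and 8, and the median gene span was 18.2 kb, against 21.6 and 12.1 kb.

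Promoters were described without a test. RefSeq start sites of GRCm38.p6 gave 74 windows for 62 of the 89 genes, each from 250 bases before to 50 after the start. Their median GC content was 56.8%, against 52.7% over 32851 windows of all genes. It was 60.3% over 11670 windows of the other genes with 5 or more counts in each control library, and 58.2% over the 2134 windows of those among them with a lowest control count in the same range as the 89 genes. The median observed over expected CpG ratio was 0.408, against 0.384, 0.743 and 0.588 in these 3 sets, and 32.4% of windows exceeded 0.6, against 35.8%, 66.5% and 48.9%. The letters GGGCGG, searched on both strands, were in 43.2% of windows, against 35.7%, 59.4% and 49.4%. TATAAA was in 10.8% against 13.6%, 7.42% and 9.18%, and CCAAT in 40.5% against 37.4%, 38.1% and 36.6%. Such matches are letters in a window and not sites. The 250 bases before the RefSeq start are shown for the 3 leading genes of the set, whose transcripts were at 0 together, to let the range of base composition be seen. The stretches are chr6:48445091-48445340 on the reverse strand for Zfp467 (70.4% GC), chrX:7606853-7607102 on the forward strand for Cacna1f (41.6% GC) and chr3:89519914-89520163 on the forward strand for Kcnn3 (58.8% GC). The RefSeq start of Zfp467 lies inside the gene as annotated by GENCODE, and the parts 48445568-48445693 and 48445694-48445825 that held all its counts in control library 2 lie upstream of the stretch shown. Capitals mark GGGCGG or CCAAT on either strand, and TATAAA was in none of the 3.
Zfp467: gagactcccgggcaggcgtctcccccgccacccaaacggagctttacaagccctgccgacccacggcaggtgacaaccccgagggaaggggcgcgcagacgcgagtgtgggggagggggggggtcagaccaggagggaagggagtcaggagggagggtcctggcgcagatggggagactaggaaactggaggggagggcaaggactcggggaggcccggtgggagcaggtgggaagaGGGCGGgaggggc
Cacna1f: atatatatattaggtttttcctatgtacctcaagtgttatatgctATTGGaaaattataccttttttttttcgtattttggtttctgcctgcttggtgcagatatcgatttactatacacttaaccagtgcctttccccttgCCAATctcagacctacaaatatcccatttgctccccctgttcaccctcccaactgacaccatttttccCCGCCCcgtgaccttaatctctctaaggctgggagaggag
Kcnn3: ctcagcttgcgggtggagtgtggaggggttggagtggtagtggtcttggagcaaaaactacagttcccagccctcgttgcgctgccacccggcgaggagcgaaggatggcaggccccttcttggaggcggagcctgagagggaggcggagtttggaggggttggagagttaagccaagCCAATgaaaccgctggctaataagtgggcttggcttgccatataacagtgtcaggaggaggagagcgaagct

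Col1a1 and S100a6, both among the 89 genes, stood in lists of markers of other cell types, and the other genes of these lists were not at 0 together. Of 12 stromal genes in the data, Col1a1 included, 9, 9 and 10 had counts in control and 2, 6 and 9 in delipidated libraries. Without Col1a1 their sums were 37.7, 47.6 and 74.3 CPM in control and 73.4, 68.5 and 43.8 CPM in delipidated libraries, with Fn1 the most abundant (0.85, SE 0.48). Sparc had 91, 31 and 335 counts in control and 0, 8 and 32 in delipidated libraries (-3.69, SE 1.32). Its value was -2.38 without control library 3 and -5.575 without delipidated library 3. Of 12 abundant somatic transcripts, S100a6 included, 9, 9 and 11 had counts in control and 5, 8 and 6 in delipidated libraries. Their sums without S100a6 were 38.5, 34.4 and 82.0 CPM in control and 21.9, 21.1 and 29.5 CPM in delipidated libraries, with Ahnak the most abundant and Cd44 at 0 in all. Tmsb4x, which encodes the actin-binding thymosin beta 4, had 53, 73 and 142 counts in control and 0, 3 and 0 in delipidated libraries (-6.58, SE 1.39, adjusted p = 1.00 in edgeR). Lgals1, which encodes galectin-1, had 34, 146 and 108 and then 24, 2 and 7 counts (-3.44, SE 1.03). The adjusted p of Tmsb4x ran from 0.000123 to 1.00 and that of Sparc from 0.0445 to 1.00 over the alternatives. The median log2 fold change was -0.71 over 6 stromal and -0.37 over 7 somatic genes tested, with 0 called in each.

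Lists for cell types that contain none of the 89 genes gave the following levels. Cumulus and granulosa genes, the cells removed before culture, had counts for 9, 11 and 10 of 17 genes in control and 7, 8 and 7 in delipidated libraries. Their sums were 224, 289 and 274 CPM in control and 292, 257 and 181 CPM in delipidated libraries, most of it Nr5a2, which embryos also express. Ptx3 and Foxl2 were at 0 in all libraries. Star had 0, 80 and 82 counts in control and 0, 10 and 43 in delipidated libraries (-1.62, SE 1.71). Amhr2 had 172, 301 and 205 and then 201, 385 and 92 counts (-0.27, SE 0.53, or 0.06 without delipidated library 3). Leukocyte genes had counts for 13, 10 and 12 of 19 in control and 5, 9 and 12 in delipidated libraries, with S100a8 at 0 in all and H2-Aa the most abundant. Their sums were 49.8, 31.4 and 42.0 CPM in control and 18.6, 34.9 and 47.9 CPM in delipidated libraries, and Lcp1 had 1.08 (SE 0.60). Cd79a had -3.44 (SE 2.07), and -8.46 without delipidated library 3, -2.17 without control library 2 and -5.44 with the replicate number as a block. Oviduct genes had counts for 7, 9 and 8 of 12 in control and 4, 7 and 7 in delipidated libraries, with Wfdc2 at 0 in all. Their sums were 101, 271 and 144 CPM in control and 182, 226 and 125 CPM in delipidated libraries. Krt18 had -1.26 (SE 0.78), or -0.40 without control library 2 and -1.77 without delipidated library 2. Epcam, the most abundant, had 0.14 (SE 0.35), or -0.13, -0.00 and -0.07 without control library 1, control library 3 and delipidated library 2.

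Endothelial genes had counts for 7, 8 and 7 of 10 in control and 8, 8 and 9 in delipidated libraries, with sums of 112, 105 and 95.7 CPM against 137, 79.0 and 152 CPM and Pecam1 the most abundant. Cdh5 had 1.74 (SE 1.47), or -0.90 without delipidated library 1, and Tek had 0.46 (SE 0.52), or -0.13 without delipidated library 3. Erythroid genes had counts for 3, 3 and 3 of 7 in control and 1, 2 and 2 in delipidated libraries, with the globin genes Hbb-bs and Hbb-bt at 0 in all. Their sums were 4.81, 5.33 and 7.19 CPM against 1.63, 4.59 and 1.46 CPM, with Slc4a1 the most abundant over all 6 libraries (0.74, SE 1.34) and Alas2 (-1.08, SE 1.58) above it in control embryos, at a mean of 1.80 against 1.02 CPM. Neuronal genes had counts for 7, 10 and 10 of 12 in control and 7, 8 and 7 in delipidated libraries, with sums of 167, 127 and 135 CPM against 114, 120.5 and 219 CPM. Tubb3 was the most abundant of them, Eno2 had -4.12 (SE 1.60) and Nefl 0.42 (SE 0.44). Sperm genes had counts for 3, 6 and 5 of 9 in control and 2, 2 and 3 in delipidated libraries, with Tnp2 and Smcp at 0 in all. Their sums were 3.33, 9.13 and 12.54 CPM against 6.58, 17.6 and 7.48 CPM, with Ldhc the most abundant (0.99, SE 0.68) and Prm2 at -2.10 (SE 1.70). Median log2 fold changes were -0.03 for cumulus, -0.34 for leukocyte, -0.18 for oviduct, 0.17 for endothelial, -0.17 for erythroid, -0.00 for neuronal and -0.56 for sperm genes, and edgeR called 0 genes of each list. Genes at 0 in every library of a group numbered 3 in control and 6 in delipidated embryos for cumulus, 2 and 6 for leukocyte, 2 and 3 for oviduct, 2 and 1 for endothelial, 3 and 5 for erythroid, 1 and 3 for neuronal and 3 and 5 for sperm genes. They numbered 1 and 3 for stromal genes with Col1a1 and 1 and 4 for abundant somatic transcripts with S100a6, and 0 and 0 for both embryo lists. These tallies include genes at 0 in all libraries. Over all genes with counts, 7.40% were at 0 in every control library and 22.4% in every delipidated library. Summed levels of the control and delipidated libraries overlapped in each list other than the erythroid genes and the abundant somatic transcripts, and the part of other cells in the counts of the 89 genes was not tested.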

How the data were processed

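Total RNA was measured in 6 libraries, 3 control and 3 delipidated, each of 3 pooled 2-cell embryos. The deposited values are raw counts per exonic part (425461 parts in each library), made by the authors from uniquely mapped reads and not normalized. The submitters' processing notes name bcl2fastq 2.20, Trimmomatic 0.36, STAR 2.5.2b, featureCounts and the build mm10. Parts with a single gene identifier were summed per gene. The 33309 parts with joined identifiers of overlapping genes, 10.93% to 11.76% of counts, were left out and added back in an alternative. No other column was used. Names and coordinates came from GENCODE M21 (GRCm38), which held 46520 of the 46811 genes, and promoters from RefSeq (GRCm38.p6).

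Genes were chosen at 5 or more counts in each control and 0 in each delipidated library. All genes were fitted with edgeR 4.0.16 in R 4.3.3 (quasi-likelihood test, filterByExpr at minimum counts of 10 per library and 15 in total, TMM, no covariate), with Benjamini-Hochberg adjustment over all genes tested. CPM were scaled by TMM, except in the floors and bounds, which used the library totals. The members received no test. Methods were tested on simulated counts of 13732 genes, with 50 genes changed at each of 4 folds. Of these 50, 3 were recovered at 2-fold, 16 at 4-fold, 33 at 8-fold and 31 at 16-fold, with 8 false calls.

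Protein-coding members with a descriptive symbol were named, with 1 exception. Values in each library were given for the 20 members with the highest lowest-control CPM, the 2 highest of each functional group with ties, and the 3 highest noncoding genes. Up to 3 genes just inside and outside the rule, 5 of the opposite direction and the 2 smallest unadjusted p-values of each marker list and gene family were also named. Functional groups were made by hand after the members were seen, and the members and lists were chosen with earlier results of these data known. The marker lists covered 2-cell activation, maternal transcripts, cumulus and granulosa cells, leukocytes, stromal cells, oviduct epithelium, endothelium, erythroid cells, neurons, sperm and abundant somatic transcripts. A family was the genes whose symbol is a member's stem followed by a number, from 3 to 40 other genes.

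Alternatives were minimum counts of 3, 10 and 20, the most counted part in place of the sum, joined parts assigned, parts overlapping opposite-strand exons removed, libraries scaled to the smallest total, counts on at least 2 parts, DESeq2 1.42.0 without a filter, edgeR without a filter, DESeq2 size factors, the replicate number as a block, and each library left out. Tables and plots were made with Python 3.11.15, pandas 2.3.3, numpy 2.4.6 and matplotlib 3.10.9.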

Additional observations from a re-analysis of the deposited data

How the results depend on the processing

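The count of 89 genes depended on the rule. It was 149 at a minimum of 3 counts, 23 at 10 and 1 at 20, 38 with the most counted part in place of the sum (15 of them among the 89) and 32 with counts on at least 2 parts in each control library. It was 92 with joined parts assigned, 91 without parts overlapping opposite-strand exons (80 of them among the 89) and 70 with libraries scaled to the smallest total. With 1 library left out it ran from 137, without delipidated library 1, to 328, without control library 1. The opposite count of 12 was 17, 2 and 1 at minimums of 3, 10 and 20, 23 with the most counted part, 6 with scaled libraries, 3 with counts on at least 2 parts, 13 with joined parts, 12 without opposite-strand overlaps and 31 to 62 with 1 library left out. In each of these alternatives other than the minimum of 20, where both were 1, the control direction held more genes. Calls were 23 lower and 4 higher in edgeR without the filter and 43 lower and 10 higher in DESeq2 without a filter. They were 0 and 0 in edgeR with DESeq2 size factors, with joined parts, with the replicate number as a block and with each library left out, with unadjusted p under 0.05 for 212 to 658 lower and 137 to 277 higher genes. Deviations from the group mean of log2 CPM were correlated between control and delipidated libraries. The correlations were -0.085, 0.061 and 0.043 for libraries of the same number and ran from -0.182 to 0.145 for different numbers. With 3 libraries in each group, such deviations cannot decide whether the numbers pair the libraries. Of the 56 marker and family genes, 5 changed sign with the replicate block, to 0.54 for Cacna1e, 0.015 for Cnih4, 0.57 for Cts3, 0.039 for Itih2 and -3.95 for Trpc4. With 1 library left out the log2 fold change ran from -0.97 to 0.058 for Amhr2, -0.13 to 0.66 for Epcam, -0.90 to 3.00 for Cdh5, -0.13 to 0.81 for Tek, -0.048 to 0.56 for Bex1, -2.00 to 1.03 for Cacna1e, -0.23 to 0.31 for Cnih4, -1.02 to 0.45 for Cts3, -0.91 to 0.24 for Fhl3, -0.044 to 0.30 for Gdf9, -0.45 to 1.20 for Itih5, -2.24 to 0.46 for Itih2 and -7.76 to 1.87 for Trpc4. Other genes kept their sign but moved, among them Tmsb4x (-9.64 to -5.98), Ces4a (-7.90 to -3.80), Rgs9 (-2.94 to -1.15) and Tdpoz4 (0.34 to 1.65). The cause of these changes was not tested. Sparc and Tmsb4x passed the threshold in edgeR without the filter, with adjusted p of 0.0445 and 0.0109, and Tmsb4x and Bex2 in DESeq2 without a filter, with 0.000123 and 0.00327. Over the alternatives each of these 3 genes reached an adjusted p of 1.00, and the others of the 56 kept their side of the threshold wherever an adjusted p was obtained, which it was not for Trpc4 in DESeq2. A sum of 5 counts in a control library can rest on fewer than 5 reads. On a single part, 5 counts are close to the 3 counts that 0 allows. The part of depth in the list was not tested.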

Other observations

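Parts shared by overlapping genes were left out of the selection. Of the 1194 joined identifiers that name such genes, 774 had 5 or more counts in each control library, and 4 of these were at 0 in each delipidated library. In the opposite direction 735 had 5 or more counts in each delipidated library, and 0 were at 0 in each control library. The parts shared by Ctrc and Cela2a, which encode pancreatic proteases, had 58, 55 and 12 counts in control libraries 1 to 3. Those of Gm44511, Klrb1c and Klrb1b, the last 2 being receptors of natural killer cells, had 21, 35 and 19. Those of Zfp827 and Gm45728 had 19, 11 and 117, and those of Sbsn and Tmem147os had 7, 19 and 28. When joined parts were assigned to single genes, Klrb1c, Zfp827 and Gm21986 joined the genes at 0 in delipidated embryos, with 21, 32 and 19, with 19, 11 and 9, and with 17, 23 and 14 counts in the control libraries. Mm2pr joined the opposite direction with 14, 9 and 7 counts. These genes were named after their values were seen.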
